A study of Mus musculus with 72 samples.

Results

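The genes described here are Ephb1, Bfsp2, Mrpl3, Poc1a, Ppm1m, Parp3, Hemk1, Dock3 and Dclk3, 9 of the 53715 gene identifiers in the count files. All are protein-coding genes of mouse chromosome 9 that lie 26.6 to 36.1 Mb distal of Gnb5, the gene deleted in these mice, and they were chosen because their read counts differed between Gnb5 genotypes in these same libraries. Genotype differences of the 9 genes, with their calls and p, are therefore a description without a test. The tests read as such below are on measures that did not choose them. The mice carry a deletion of exon 3 of Gnb5 made in the germline of C57BL/6J animals, so the deletion is in every tissue, and the line was brought back from frozen sperm. RNA was sequenced from 18 males aged 18 weeks, 6 Gnb5+/+ (WT), 6 Gnb5+/- (HET) and 6 Gnb5-/- (KO). Atria (right and left together) and ventricles were taken from all 3 genotypes, and whole cerebellum, hippocampi and cerebral cortex from Gnb5+/+ and Gnb5-/- mice alone, which gives 72 libraries in 12 groups of 6 separate mice. Between 29204390 and 48807435 reads were counted on genes in each library (median 38864900).

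Genes of one chromosome are inherited together unless a crossover separates them, and the closer 2 genes lie, the rarer the crossover. The 9 genes share no pathway. Ephb1 encodes a receptor tyrosine kinase for ephrin-B ligands that guides axons and shapes synapses, Dock3 encodes a guanine nucleotide exchange factor for the GTPase Rac in neurons, Dclk3 encodes a doublecortin-like kinase and Ppm1m a protein phosphatase of the metal-dependent PP2C class. Mrpl3 encodes a protein of the large subunit of the mitochondrial ribosome and Hemk1 a methyltransferase that modifies a mitochondrial translation release factor. Parp3 encodes an ADP-ribosyltransferase that acts at DNA breaks, Poc1a a centriole protein, and Bfsp2 phakinin, a beaded filament protein known from the fibre cells of the eye lens.

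In GRCm38 coordinates the genes lay, from proximal to distal, as follows. Ephb1 (ENSMUSG00000032537) spans chr9:101922128-102354693 on the minus strand and Bfsp2 (ENSMUSG00000032556) chr9:103424924-103480420 on the minus strand. Mrpl3 (ENSMUSG00000032563) spans chr9:105053239-105079888 on the plus strand. Close together beyond it lay Ppm1m (ENSMUSG00000020253, chr9:106194947-106199746, minus strand), Poc1a (ENSMUSG00000023345, chr9:106281061-106350521, plus strand) and Parp3 (ENSMUSG00000023249, chr9:106470322-106476949, minus strand). Dock3 (ENSMUSG00000039716) spans chr9:106892825-107231909 and Hemk1 (ENSMUSG00000032579) chr9:107327084-107338350, both on the minus strand. Dclk3 (ENSMUSG00000032500), the farthest from Gnb5, spans chr9:111439081-111489118 on the plus strand. Exons of Ephb1, Bfsp2, Mrpl3, Parp3 and Dock3 overlap exons of a gene on the other strand, and the setting of the counter for strand was not given in the sources used here. Exons of Mrpl3 and Dock3 also overlap exons of a gene on their own strand. Gnb5 itself spans chr9:75306288-75345876 on the plus strand. Distances from Gnb5 are between the facing ends of the 2 genes. The interval of 25 to 38 Mb used below and distances between 2 other genes are between lower coordinates.

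The 300 bases around the transcription start of 4 genes are shown to set beside each other a pair that was higher and a pair that was lower in Gnb5-/- than in Gnb5+/+ ventricles. They run from 250 bases before to 50 bases after the start, 5′ to 3′ on the strand of the gene, in the RefSeq annotation of GRCm38.p6. Capitals mark CCAAT or, for the other strand, ATTGG. The letters of GGGCGG (or CCGCCC) and TATAAA (or TTTATA) were searched on both strands too and are in none of the 4 windows. The sequence is that of the C57BL/6J reference, and the alleles of these mice were not sequenced.
Ephb1, higher, chr9:102354644-102354943, minus strand: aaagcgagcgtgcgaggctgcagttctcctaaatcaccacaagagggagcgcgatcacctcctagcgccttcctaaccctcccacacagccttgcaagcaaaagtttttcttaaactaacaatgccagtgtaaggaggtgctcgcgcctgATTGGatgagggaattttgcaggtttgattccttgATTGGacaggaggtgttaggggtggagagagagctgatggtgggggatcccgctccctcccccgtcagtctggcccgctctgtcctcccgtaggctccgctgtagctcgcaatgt
Hemk1, higher, chr9:107338301-107338600, minus strand: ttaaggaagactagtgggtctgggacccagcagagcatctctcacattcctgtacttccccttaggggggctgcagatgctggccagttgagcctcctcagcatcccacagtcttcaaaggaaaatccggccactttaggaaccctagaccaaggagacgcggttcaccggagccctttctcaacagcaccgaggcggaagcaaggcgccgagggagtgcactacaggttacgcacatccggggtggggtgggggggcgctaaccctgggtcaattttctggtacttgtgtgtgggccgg
Mrpl3, lower, chr9:105053018-105053317, plus strand: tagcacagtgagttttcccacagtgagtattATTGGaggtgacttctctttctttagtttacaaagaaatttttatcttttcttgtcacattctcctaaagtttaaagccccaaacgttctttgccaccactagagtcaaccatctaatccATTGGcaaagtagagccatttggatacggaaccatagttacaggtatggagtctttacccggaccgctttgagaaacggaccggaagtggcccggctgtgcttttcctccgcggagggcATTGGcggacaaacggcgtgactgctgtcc
Parp3, lower, chr9:106476900-106477199, minus strand: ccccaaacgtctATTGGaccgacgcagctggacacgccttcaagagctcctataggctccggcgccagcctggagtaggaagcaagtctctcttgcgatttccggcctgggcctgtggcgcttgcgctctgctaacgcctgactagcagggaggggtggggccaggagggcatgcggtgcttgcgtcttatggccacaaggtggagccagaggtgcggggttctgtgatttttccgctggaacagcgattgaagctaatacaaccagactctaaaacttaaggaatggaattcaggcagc
The Ephb1 window holds 2 matches, the Mrpl3 window 3, the Parp3 window 1 and the Hemk1 window 0, so that both the higher and the lower pair hold CCAAT letters. Of all 32851 RefSeq promoter windows of this length, 37.4% hold CCAAT, 35.7% hold GGGCGG and 13.6% hold TATAAA. Among the 8 genes with a promoter entry, GGGCGG was found for Ppm1m, Poc1a and Dock3 and TATAAA for 0. Dclk3 had no entry.

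Levels are given as CPM, reads on a gene relative to the reads on all genes of the library, scaled within a tissue by the trimmed mean of M-values. Gnb5 was at 26.6 to 32.9 CPM in Gnb5+/+, 13.8 to 18.9 in Gnb5+/- and 1.49 to 2.60 in Gnb5-/- atria, and the genotypes did not overlap in any tissue, so no library went against its label. Markers of heart muscle, neurons, astrocytes and oligodendrocytes were highest in the tissues that should hold them, but some libraries also held markers of another tissue. Summed over Myl2, Myl3 and Irx4, ventricular muscle markers were at 65.5 CPM in hippocampus and 18.7 in cerebellum of Gnb5+/+ mouse 8, where the Gnb5-/- mice had at most 0.777 and 0.6996, and at 1203 CPM in atria of Gnb5+/+ mouse 16, where the lowest Gnb5+/+ atria had 65.0. The ventricles of Gnb5+/- mouse 4 held 13499 CPM of them, where the Gnb5+/+ and Gnb5-/- ventricles held at most 9417, and 290 CPM of 4 atrial markers summed, where those held at most 243. In 3 Gnb5-/- brain libraries the share of uniquely aligned reads outside genes stood apart, at 8.02% in cerebellum of mouse 12 against 14.02% to 16.97% in the other cerebellum libraries, and at 6.86% and 8.32% in cortex of mice 14 and 3 against 13.1% to 15.6% in the others. The cerebellum of mouse 12 also held 885 CPM of 3 choroid plexus markers summed (Ttr, Kl and Folr1), where the 6 Gnb5+/+ cerebella held at most 7.41. In hippocampus these markers varied from 31.8 to 1492 CPM in Gnb5+/+ and from 33.3 to 274 in Gnb5-/- mice. The part of such library differences in the values below was not tested, other than by leaving libraries out. These are whole pieces of tissue, in which fewer cells of a type and less RNA per cell cannot be told apart.

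Against Gnb5+/+ mice, 5 of the 9 genes had an adjusted p below 0.05 in Gnb5-/- atria (1 higher, 4 lower), where 0.253% of all 16181 genes tested did (0.136% higher and 0.117% lower). The same held for 5 of 7 in ventricles (3 higher, 2 lower), beside 0.188% of all genes (0.0942% in each direction), with Bfsp2 and Dock3 too low to be tested there. In the brain it held for 2 of 9 in cerebellum (1 higher, 1 lower), 4 of 9 in hippocampus and 3 of 9 in cortex, all of these lower. The shares of all genes were 0.0817% in cerebellum (0.0292% higher, 0.0525% lower), 0.165% in hippocampus (0.0853% higher, 0.0796% lower) and 0.0557% in cortex (0.0223% higher, 0.0334% lower). Without mouse 12 the count in cerebellum was 5, and that over all genes rose from 14 of 17139 to 62 of 17255. The 9 genes were picked for these contrasts, so nothing is read from the gap between them and all genes. The median log2 difference over the genes tested was -0.39 in atria, 0.63 in ventricles, -0.29 in cerebellum, -0.17 in hippocampus and -0.12 in cortex, where the median over all genes tested lay within 0.01 of 0 in each tissue. The Gnb5+/- hearts gave 0 calls among the 9 genes in atria (0.0124% of all genes) and 0 among 7 in ventricles (0.0202%) by edgeR's quasi-likelihood test. DESeq2 also gave 0 and 0. An unadjusted p below 0.05 was reached by 3 and 3 of them in edgeR and by 3 and 2 in DESeq2, where 7.22% and 4.84% of all genes reached it in edgeR and 7.40% and 5.11% in DESeq2. The genes were chosen for genotype differences in these libraries, and the same Gnb5+/+ mice serve here, so nothing is read from these counts either. Without mice 15, 4 and 13 edgeR called 1 (Hemk1) in atria and 2 (Ephb1 and Hemk1) in ventricles. Over all genes it then called 8 of 16410 and 12 of 15118, where it called 2 and 3 with these mice. These mice were singled out with the values of the 9 genes known, so those calls are a description. No gene was called in every tissue, and Ppm1m was called higher in one tissue and lower in others.

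**Figure D1:**
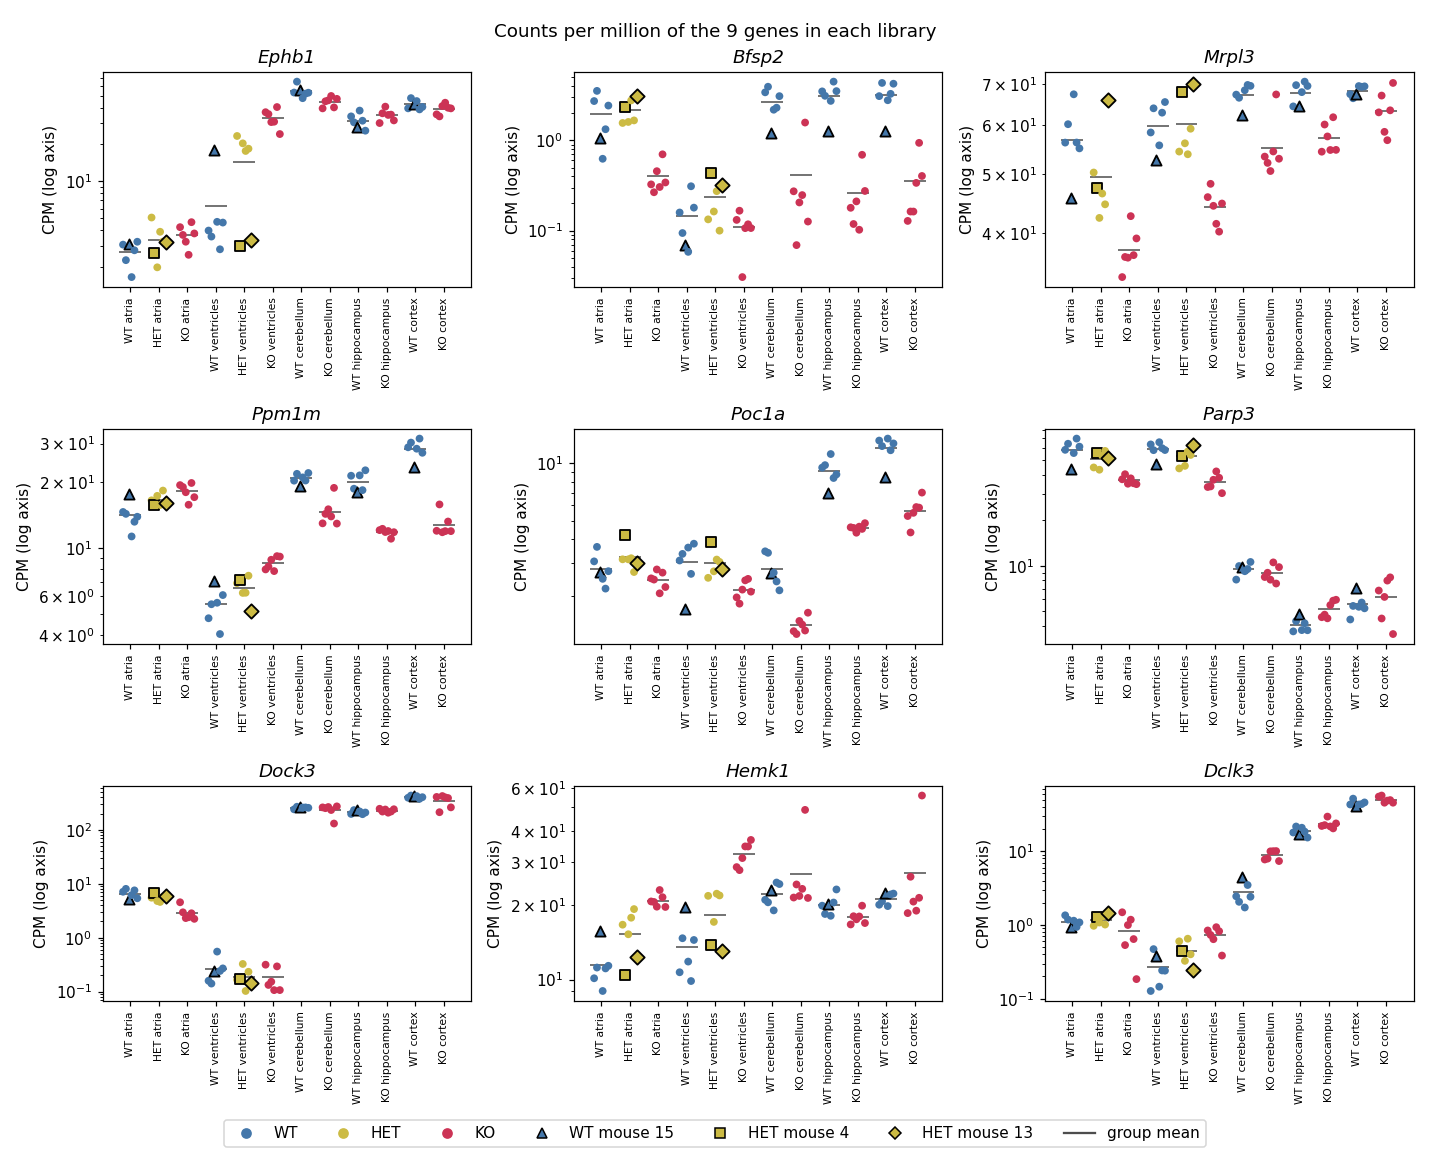
CPM (log axis) of each of the 9 genes in every library, 1 panel per gene, with the 12 groups of 6 mice on the horizontal axis and a line at each group mean. A triangle marks WT mouse 15, a square HET mouse 4 and a diamond HET mouse 13. In the ventricle columns of the Ephb1 panel the triangle stands at 18.0 CPM, above the other WT mice, and the square and diamond at 2.95 and 3.33 CPM, below the other HET mice.

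Ephb1 differed most in the ventricles. There the 6 Gnb5+/+ mice had a lowest value of 2.80 CPM, a median of 4.29 and a highest of 18.0, the 6 Gnb5+/- mice 2.95, 18.1 and 23.5, and the 6 Gnb5-/- mice 24.3, 33.0 and 40.4. The Gnb5-/- mice lay above every Gnb5+/+ mouse, by 2.40 ± 0.48 (SE) on the log2 scale, or 5.29-fold. The spread within the other genotypes was carried by single animals. Mouse 15 was the Gnb5+/+ mouse at 18.0 CPM, where the other 5 reached at most 4.68. Mice 4 and 13 were the Gnb5+/- mice at 2.95 and 3.33 CPM, where the other 4 lay between 17.7 and 23.5. Without these 3 mice the log2 difference was 3.07 for Gnb5-/- and 2.35 for Gnb5+/- mice, against 1.21 ± 0.47 for Gnb5+/- with them. The 3 mice were left out with these values known, so the wider gap is a description. In the other tissues the genotypes overlapped, with log2 differences of 0.45 ± 0.21 in atria, -0.29 ± 0.09 in cerebellum, 0.15 ± 0.09 in hippocampus and -0.12 ± 0.09 in cortex.

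Dock3 differed in the atria. The lowest, median and highest values were 5.22, 6.63 and 8.05 CPM in Gnb5+/+, 4.601, 5.61 and 6.63 in Gnb5+/- and 2.24, 2.62 and 4.54 in Gnb5-/- mice, a log2 difference of -1.19 ± 0.17 between Gnb5-/- and Gnb5+/+ (2.28-fold lower). Gnb5-/- mice lay below both other genotypes. In the ventricles every library was at or under 0.552 CPM. In the brain, where Dock3 was read most, the genotypes overlapped. In cerebellum and cortex the lowest values belonged to libraries that stood apart, and in hippocampus the lowest was 195 CPM in Gnb5+/+ mouse 17. The first were 131 CPM in cerebellum of mouse 12, where the other Gnb5-/- mice had 233 to 272, and 261 and 212 in cortex of mice 14 and 3, where the other Gnb5-/- mice had 389 to 423.

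Dclk3 differed in the cerebellum. The 6 Gnb5+/+ mice had 1.73, 2.43 and 4.45 CPM (lowest, median, highest) and the 6 Gnb5-/- mice 7.37, 8.96 and 10.1, a log2 difference of 1.68 ± 0.21 or 3.20-fold. The groups did not overlap, and the Gnb5+/+ mouse nearest to the Gnb5-/- mice was mouse 15. In ventricles the gene was near the bottom of what was tested, with means of 0.267 CPM in Gnb5+/+ and 0.726 in Gnb5-/- mice. That log2 difference was 1.41 ± 0.32, was not called, and the groups overlapped. In hippocampus and cortex, where levels were highest, the log2 differences were 0.33 ± 0.10 and 0.17 ± 0.09, neither called.

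Ppm1m lay on opposite sides of Gnb5+/+ in heart and brain. In ventricles the lowest, median and highest values were 4.04, 5.57 and 7.04 CPM in Gnb5+/+, 5.17, 6.57 and 7.46 in Gnb5+/- and 7.83, 8.52 and 9.17 in Gnb5-/- mice. Gnb5-/- ventricles were higher by 0.63 ± 0.12 on the log2 scale (1.55-fold), and atria by 0.36 ± 0.09 (1.28-fold), the latter not called. In cortex the values were 23.4, 28.6 and 31.6 CPM in Gnb5+/+ and 11.8, 11.9 and 15.8 in Gnb5-/- mice, a log2 difference of -1.15 ± 0.10 (2.22-fold lower). The differences in hippocampus and cerebellum were -0.77 ± 0.06 (1.70-fold lower) and -0.50 ± 0.10 (1.42-fold lower). In all 3 brain regions the genotypes did not overlap, but the cerebellum was not called. Its highest Gnb5-/- value, 18.8 CPM, was that of mouse 12, and without this mouse it was called.

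Mrpl3 was lower in Gnb5-/- mice by smaller steps. In atria the lowest, median and highest values were 45.7, 56.2 and 67.4 CPM in Gnb5+/+, 42.3, 46.9 and 66.0 in Gnb5+/- and 33.9, 36.7 and 42.6 in Gnb5-/- mice. In ventricles they were 52.7, 60.6 and 65.5 in Gnb5+/+, 53.8, 57.6 and 70.2 in Gnb5+/- and 40.2, 44.5 and 48.1 in Gnb5-/- mice. The lowest Gnb5+/+ value in both was that of mouse 15, and the highest Gnb5+/- value in both was that of mouse 13. The log2 differences between Gnb5-/- and Gnb5+/+ mice were -0.60 ± 0.10 in atria (1.51-fold lower), -0.44 ± 0.08 in ventricles (1.36-fold lower) and -0.25 ± 0.04 in hippocampus (1.19-fold lower). In cerebellum the difference was -0.29 ± 0.07 and not called. The highest Gnb5-/- value there, 67.4 CPM, was that of mouse 12, the other 5 lay between 50.5 and 54.4, and without mouse 12 the difference was -0.35 and called. In cortex it was -0.11 ± 0.07, not called.

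Hemk1 was higher in the heart of Gnb5-/- mice, and the Gnb5+/- medians lay between those of the other genotypes. Ventricles had 9.87, 13.2 and 19.7 CPM (lowest, median, highest) in Gnb5+/+, 13.03, 19.5 and 22.3 in Gnb5+/- and 27.8, 32.9 and 36.9 in Gnb5-/- mice. Atria had 8.99, 11.1 and 15.7 in Gnb5+/+, 10.4, 15.99 and 19.3 in Gnb5+/- and 19.7, 20.7 and 23.1 in Gnb5-/- mice. Gnb5-/- mice lay above all others in both tissues, by 1.25 ± 0.16 (2.38-fold) and 0.87 ± 0.14 (1.83-fold) on the log2 scale against Gnb5+/+. The highest Gnb5+/+ mouse in both was mouse 15, and the lowest Gnb5+/- mice in both were mice 4 and 13, in atria at 10.4 and 12.4 CPM and in ventricles at 13.8 and 13.03. For Gnb5+/- mice the log2 differences were 0.42 ± 0.14 in atria and 0.44 ± 0.16 in ventricles, not called, and 0.72 and 0.75, both called, without mice 15, 4 and 13. These mice were singled out with such values known. Leaving them out widens this gap by choice, so those calls are a description. In Gnb5-/- hippocampus the log2 difference was -0.17 ± 0.06, not called. In cerebellum and cortex 1 library each carried the difference. Mouse 12 had 48.8 CPM in cerebellum and mouse 14 had 55.8 in cortex, where the other Gnb5-/- mice reached 24.3 and 26.1. The log2 differences of 0.28 and 0.34 became 0.02 without mouse 12 and -0.09 without mice 14 and 3.

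Parp3 was lower in Gnb5-/- hearts. Ventricles had 47.2, 59.3 and 65.9 CPM in Gnb5+/+, 44.2, 53.9 and 62.8 in Gnb5+/- and 30.3, 35.3 and 42.2 in Gnb5-/- mice. Atria had 43.6, 60.1 and 69.6 in Gnb5+/+, 43.3, 52.8 and 57.7 in Gnb5+/- and 34.7, 36.3 and 40.4 in Gnb5-/- mice. Gnb5-/- mice lay below all others in both tissues, and the lowest Gnb5+/+ mouse in both was mouse 15. The log2 differences between Gnb5-/- and Gnb5+/+ mice were -0.72 ± 0.10 in ventricles (1.65-fold lower) and -0.68 ± 0.10 in atria (1.60-fold lower). In hippocampus the difference had the other sign, 0.35 ± 0.10 (1.28-fold higher), and was not called. All 6 Gnb5-/- hippocampi, at 4.48 to 5.94 CPM, lay above the Gnb5+/+ mean of 4.06, but mouse 15, at 4.76, lay among them.

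Poc1a was lower in the brain of Gnb5-/- mice. Cortex had 8.49, 12.5 and 13.5 CPM in Gnb5+/+ and 4.33, 5.67 and 7.01 in Gnb5-/- mice, hippocampus 6.97, 9.11 and 11.2 against 4.31, 4.59 and 4.84, and cerebellum 2.15, 2.65 and 3.44 against 1.27, 1.37 and 1.64. In none of the 3 regions did the genotypes overlap. The lowest Gnb5+/+ value in cortex and in hippocampus was that of mouse 15. The log2 differences were -1.09 ± 0.14 (2.12-fold lower), -0.99 ± 0.10 (1.98-fold lower) and -0.98 ± 0.15 (1.97-fold lower) in that order. In the heart the differences were smaller and not called, at -0.49 ± 0.17 in ventricles and -0.19 ± 0.14 in atria. In ventricles mouse 15 had 1.72 CPM, below every Gnb5-/- mouse (1.83 to 2.47), and the other 5 Gnb5+/+ mice lay above all of them.

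Bfsp2 had the largest differences on the log2 scale among the 9 genes, from low levels. In hippocampus the lowest, median and highest values were 1.28, 3.32 and 4.49 CPM in Gnb5+/+ and 0.102, 0.195 and 0.694 in Gnb5-/- mice. In cortex they were 1.28, 3.20 and 4.35 against 0.128, 0.251 and 0.941. The groups did not overlap in either, and the log2 differences were -3.53 ± 0.41 (11.5-fold lower) and -3.16 ± 0.47 (8.92-fold lower). In atria the values were 0.627, 1.89 and 3.55 CPM in Gnb5+/+, 1.56, 2.00 and 3.11 in Gnb5+/- and 0.267, 0.334 and 0.702 in Gnb5-/- mice. The log2 difference between Gnb5-/- and Gnb5+/+ atria was -2.30 ± 0.37 (4.94-fold lower), and these groups overlapped by 1 mouse on each side. The low Gnb5+/+ value of 0.627 CPM was that of mouse 16, whose atria held the most ventricular muscle markers, and Bfsp2 was low in ventricles. The part of that library's make-up in the overlap was not tested. Cerebellum had 1.21, 2.70 and 3.94 CPM in Gnb5+/+ and 0.0691, 0.227 and 1.58 in Gnb5-/- mice. Its log2 difference of -2.70 ± 0.61 (6.50-fold lower) was not called, but without mouse 12 it was -3.85 and called. Among Gnb5-/- mice, mouse 12 was the highest for Bfsp2 in 4 of 5 tissues, the hippocampus and the cortex included, where it did not stand apart in the share of reads outside genes. Among Gnb5+/+ mice, mouse 15 was the lowest in each brain region. Markers of the lens (Cryba1, Crygs, Mip and Lim2) summed to at most 0.587 CPM in any library.

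**Figure D2:**
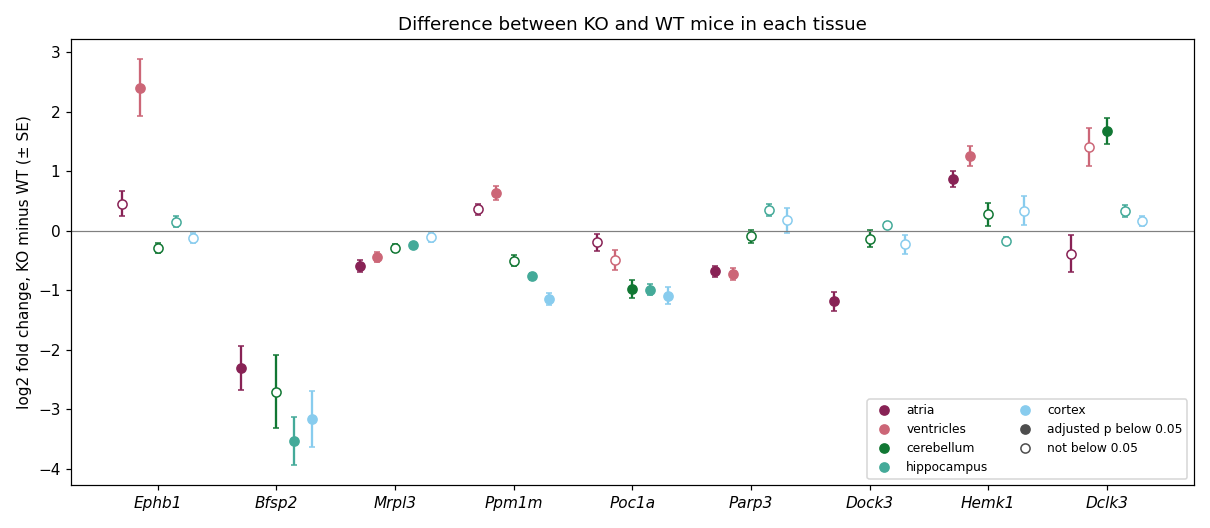
Difference between Gnb5-/- (KO) and Gnb5+/+ (WT) means on the log2 scale with its standard error, for each of the 9 genes in the 5 tissues. Filled points had an adjusted p below 0.05 over all genes tested and open points did not. The points of Bfsp2 lie at -2.30 to -3.53 in the 4 tissues where it was tested, those of Ppm1m lie above 0 in the heart and below 0 in the brain, and the 9 genes were chosen for these differences.

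The mice at the edge of their genotype recurred from gene to gene. Over the 19 pairs of a gene and a tissue in which Gnb5-/- and Gnb5+/+ mice were called different, mouse 15 was the Gnb5+/+ mouse nearest to the Gnb5-/- side in 16 and the farthest in 0. Over the 10 such pairs in the heart, mouse 13 was the Gnb5+/- mouse farthest from the Gnb5-/- side in 6 and farthest or second farthest in 9, and mouse 4 in 3 and 6. To put genes on one scale, the position of a mouse was taken as its log2 CPM relative to the mean of the other Gnb5+/+ mice (0) and the mean of the Gnb5-/- mice (1), for genes at which the Gnb5-/- mice and the Gnb5+/+ mice other than mouse 15 differed by at least 0.5. For Gnb5+/- mice the mean of all 6 Gnb5+/+ mice was 0. For each Gnb5+/+ mouse other than mouse 15 the mean at 0 includes mouse 15. This moves their positions over the 9 genes away from the Gnb5-/- side. Leaving mouse 15 out of the filter also lets in genes at which it lay toward the Gnb5-/- side. The difference was 0.51 for Ephb1 in atria and -0.59 for Poc1a in ventricles without mouse 15, but 0.46 and -0.44 with it. Mouse 15 stood at 0.58 and 1.54 for these, so its medians can lean to that side through the filter. Over 7 of the 9 genes in atria, the median position was 0.56 for mouse 15 and between -0.27 and 0.04 for the other 5 Gnb5+/+ mice. Over 6 genes in ventricles it was 0.56 for mouse 15 and -0.25 to 0.03 for the others. In cerebellum (4 genes), hippocampus (3) and cortex (3) mouse 15 had medians of 0.32, 0.37 and 0.41, where the other Gnb5+/+ mice had at most 0.15, 0.13 and -0.01. Mouse 15 was thus above each of the other Gnb5+/+ mice in all 5 tissues.

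The Gnb5+/- mice 4 and 13 lay the other way. Their median positions were -0.03 and 0.10 in atria, where the other 4 Gnb5+/- mice had 0.19 to 0.41, and 0.11 and -0.06 in ventricles, where the others had 0.30 to 0.57. The ventricles of mouse 4 are the library with the high muscle markers given above, and their part in its positions was not tested. Single genes varied around these medians. In ventricles mouse 4 had a position of -0.28 for Ephb1 and 0.05 for Hemk1, but 0.61 for Ppm1m, and in atria mouse 13 had 0.64 for Ephb1 and -0.61 for Dclk3. The 3 mice were singled out with these values known, so the positions are a description.

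Closer to Gnb5 the same 3 mice stood elsewhere in the heart, whereas mouse 15 had similar near and far medians in cerebellum and hippocampus. The genes of chromosome 9 called between Gnb5-/- and Gnb5+/+ mice in any tissue, and differing by at least 0.5 there, were put on the same scale. The near genes, within 20 Mb of Gnb5, include Gnb5 itself, which put mice 4, 13 and 15 at 0.27, 0.16 and 0.04 in atria and 0.15, 0.23 and -0.01 in ventricles. In atria, the median position over 16 such near genes was 0.60 for mouse 4, 0.57 for mouse 13 and 0.15 for mouse 15. Over 18 genes at 25 Mb or more distal, 7 of the 9 genes among them, it was -0.03, 0.00 and 0.59. In ventricles the medians were 0.37, 0.31 and 0.26 over 12 genes within 20 Mb and 0.05, -0.08 and 0.51 over 13 genes farther out, 6 of the 9 genes among them. The other 4 Gnb5+/- mice had near medians of 0.32 to 0.50 and far ones of 0.37 to 0.55 in atria, and 0.26 to 0.36 and 0.28 to 0.51 in ventricles. In both heart tissues the near median was the higher for mice 4 and 13, and the far one for mouse 15. In the brain, where mouse 15 alone can be placed, its near and far medians were 0.34 and 0.32 in cerebellum, 0.47 and 0.40 in hippocampus and 0.03 and 0.41 in cortex.

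Named genes near Gnb5 gave varied positions. Fam81a, 5.2 Mb proximal of Gnb5, was higher in Gnb5+/- than in Gnb5+/+ atria by 2.36 ± 0.28 on the log2 scale, beside 2.59 ± 0.28 for Gnb5-/-. It put mouse 4 at 0.94 and mouse 13 at 0.86 in atria, within the range of the other 4 Gnb5+/- mice (0.79 to 1.03), and mouse 15 at -0.31. In ventricles it gave 1.01, 0.74 and 0.11, and 0.57 to 0.92 for the other 4. Lysmd2 and Myo5c, the called genes nearest to Gnb5 on either side in atria, put mouse 4 at 0.44 and 0.38, mouse 13 at 0.58 and 0.11 and mouse 15 at -0.19 and -0.24, where the other Gnb5+/- mice had 0.34 to 0.88 and 0.19 to 0.51. Snap91 put mice 4, 13 and 15 at 0.29, 0.26 and 0.22 in atria (other Gnb5+/- mice 0.28 to 0.31) and Bmp5 at 0.28, 0.03 and -0.01 (0.22 to 0.45). Myo5c in ventricles gave 2.45, -0.45 and -0.06 (0.01 to 0.94). Where mouse 13 lay outside the range of the other 4 (Myo5c, Snap91 and Bmp5), it lay below, and where mouse 4 did (Fam81a and Myo5c in ventricles), it lay above. The positions come from single libraries, and what sets them was not tested.

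**Figure D3:**
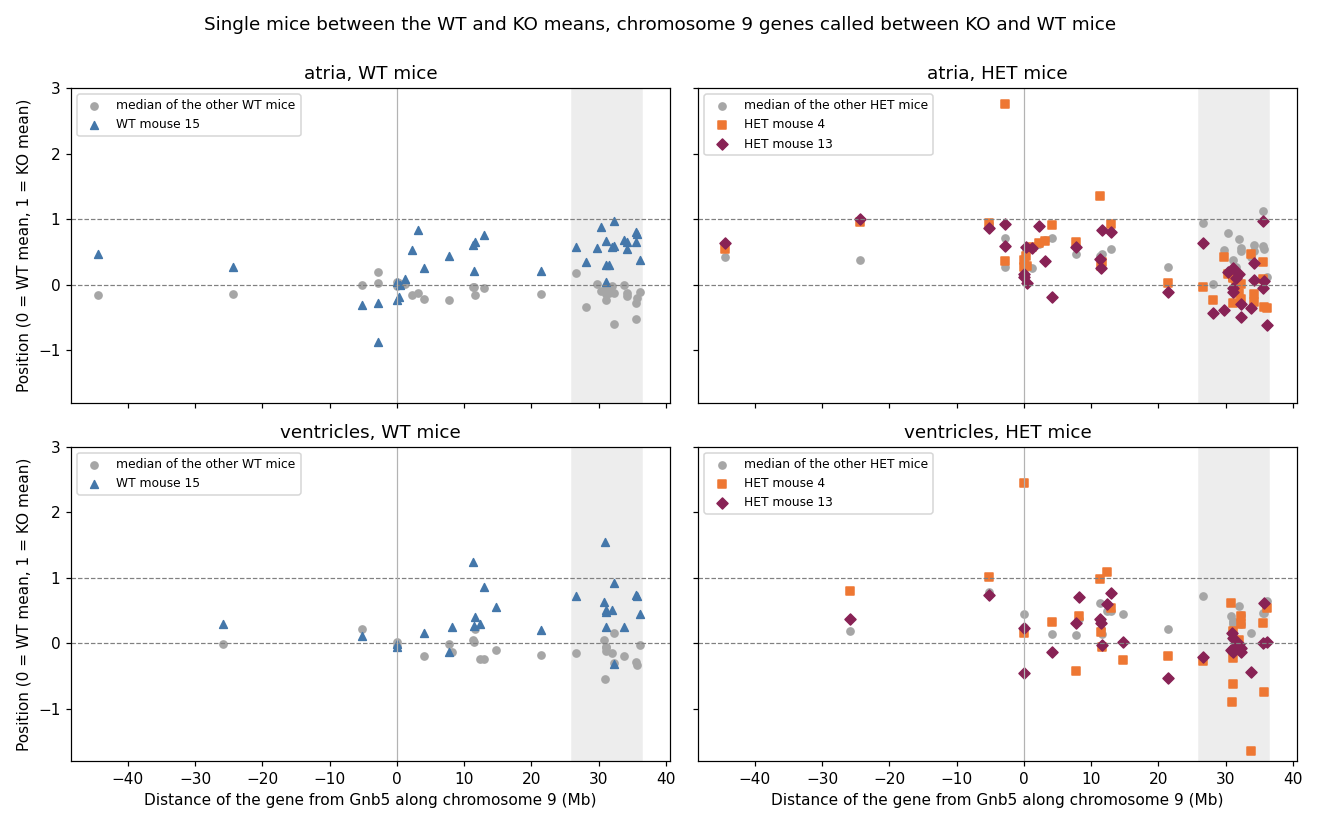
Position of single mice between the Gnb5+/+ (WT) mean at 0 and the Gnb5-/- (KO) mean at 1 against the distance of the gene from Gnb5 in Mb, for called genes of chromosome 9, in atria and ventricles (rows) and for WT and HET mice (columns). Grey points are the median of the other mice of that genotype and the shaded band holds the 9 genes. In atria mouse 15 has a median of 0.59 over the genes 25 Mb or more distal and 0.15 within 20 Mb, and mice 4 and 13 have -0.03 and 0.00 against 0.60 and 0.57.

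The rule had a lower bound on distance, and the called genes just outside it were Pxylp1 and Pcolce2. Ephb1, the nearest of the 9, starts 26.6 Mb from Gnb5. Pxylp1, at 21.5 Mb, was lower in Gnb5-/- atria and cerebellum (log2 differences of -1.08 ± 0.20 and -0.87 ± 0.11), and Pcolce2, at 20.3 Mb, was higher in atria (0.37 ± 0.07). At the other end Dclk3 lies at 36.1 Mb, and 0 genes farther than 38 Mb distal of Gnb5 were called in any genotype contrast by edgeR. The annotation holds 421 genes between 25 and 38 Mb. Of those tested, 12 of 170 were called in atria (4 higher, 8 lower), 10 of 153 in ventricles (4 higher, 6 lower), 9 of 189 in cerebellum (3 higher, 6 lower), 11 of 189 in hippocampus (2 higher, 9 lower) and 5 of 189 in cortex (1 higher, 4 lower), the 9 genes included. Since the 9 were picked for these contrasts, the counts without them are 7 of 161, 5 of 146, 7 of 180, 7 of 180 and 2 of 180 (4.35%, 3.42%, 3.89%, 3.89% and 1.11%), beside shares of all genes between 0.0557% and 0.253%. The interval was drawn to hold the 9 genes, so nothing is read from this gap or from the counts that follow. Of all calls in these tissues, 27 of 41, 20 of 28, 13 of 14, 25 of 29 and 8 of 10 were on chromosome 9. Within 20 Mb of Gnb5 lay 11, 9, 3, 14 and 3 of them. Single mice moved the counts over all interval genes, the 9 included. Without mouse 15 they were 21, 15, 15, 17 and 11, without mouse 4 the count in ventricles was 16, without mouse 12 that in cerebellum was 23 and without mouse 14 that in cortex was 12. Calls over all genes rose too, to 62, 41, 30, 37 and 20 without mouse 15. They were 42 in ventricles without mouse 4, 62 in cerebellum without mouse 12 and 22 in cortex without mouse 14. In Gnb5+/- atria and ventricles edgeR called 0, as did DESeq2. There 24 of 170 and 13 of 153 had an unadjusted edgeR p below 0.05, 3 and 3 of them among the 9 genes. Of all genes, 1169 of 16181 (7.22%) and 720 of 14866 (4.84%) did.

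Outside the 9 genes, 17 genes of this interval were called in at least 1 contrast. Among them, Rpl29, which encodes a protein of the large cytosolic ribosomal subunit and lies 0.041 Mb from Parp3, was lower in all 5 tissues of Gnb5-/- mice, with log2 differences of -3.29 ± 0.25 in atria, -2.80 ± 0.28 in ventricles, -2.56 ± 0.21 in cerebellum, -2.57 ± 0.13 in hippocampus and -2.71 ± 0.16 in cortex. Others were genes next to the 9, such as Abhd14b, at -0.82 ± 0.12 in atria and -0.75 ± 0.13 in ventricles, and Nprl2, at 0.43 ± 0.08 and 0.48 ± 0.08.

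Genes of the same families as the 9 were not used in choosing them, and their genotype differences were tested. The list held 105 genes, of which 5 are on chromosome 9. They are the other Ephb receptors and their ephrin-B ligands, lens filament and crystallin genes, 47 other Mrpl genes, centriole genes and other Ppm1 phosphatases. The rest are other Parp genes, genes of translation release, other Dock genes with their partners Elmo1 and Elmo2, and Dclk1 and Dclk2. Of the 103 tested in Gnb5-/- atria, 1 was called. It was Elmo1 (chromosome 13), which encodes a partner of Dock proteins in the activation of Rac, higher by 0.41 ± 0.08 on the log2 scale with an adjusted p of 0.0264 by edgeR's quasi-likelihood test. DESeq2 called it too, and with the replicate number as a block its adjusted p was 0.0889.

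In the other contrasts edgeR called 0 of the relatives, of 101 to 103 tested. An unadjusted p below 0.05 was reached by 2 in Gnb5-/- ventricles, 5 in cerebellum, 7 in hippocampus and 5 in cortex, where 4.78%, 5.85%, 7.70% and 7.39% of all genes reached it, and by 12 and 5 in Gnb5+/- atria and ventricles (7.22% and 4.84% of all genes). DESeq2 called 1 of these, Ppm1j, which encodes another PP2C phosphatase, in cerebellum, at a log2 difference of 0.71 ± 0.19 with an adjusted p of 0.0489. For that gene edgeR gave 0.71 ± 0.18 with an adjusted p of 0.583. The median log2 difference over the relatives lay between -0.04 and 0.06 in the heart and was -0.01 in hippocampus, but 0.13 in cerebellum and 0.16 in cortex. The Mrpl genes had medians of 0.33 in cerebellum and 0.57 in cortex, which became 0.05 without mouse 12 and 0.00 without mice 14 and 3. Mrpl3, lower in the heart and hippocampus, was thus not accompanied by a called change in any of the 47 other Mrpl genes, the smallest p among them being that of Mrpl32 in atria, at -0.32 ± 0.11 with an adjusted p of 0.385 (edgeR), followed by Mrpl16 in the same tissue (-0.19 ± 0.06, 0.390).

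In the remaining families, the 2 relatives of smallest p each stood as follows, with adjusted p by edgeR. Among ligands and receptors, Efnb2, a ligand of Ephb1, was at a log2 difference of 0.23 ± 0.09 in Gnb5-/- atria (0.443) and the receptor gene Ephb4 at -0.19 ± 0.10 in hippocampus (0.666). Among phosphatases Ppm1j was followed by Ppm1a, at -0.16 ± 0.06 in Gnb5-/- atria (0.407), and among kinases Dclk2 was at 0.42 ± 0.19 in Gnb5+/- atria (0.667) and Dclk1 at -0.39 ± 0.19 in Gnb5-/- ventricles (1.00). None of these passed the correction, and their signs were mixed. Of the genes of translation release, Mtrf1l was at -0.29 ± 0.12 in Gnb5+/- atria (0.651) and the methyltransferase gene N6amt1 at 0.20 ± 0.09 in Gnb5+/- ventricles (0.961). Parp16, itself on chromosome 9, was at 0.32 ± 0.11 in Gnb5+/- atria (0.630) and Parp8 at 0.15 ± 0.06 in Gnb5-/- hippocampus (0.600). The centriole genes Poc5 and Poc1b were at -0.15 ± 0.07 and -0.18 ± 0.10 in Gnb5+/- atria (0.688 and 0.737). Beside Bfsp2, the small heat shock protein gene Cryab, on chromosome 9, was at -0.66 ± 0.26 and the intermediate filament gene Vim at -0.26 ± 0.11 in Gnb5-/- hippocampus (0.579 and 0.597). These did not pass either.

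The 9 genes were not chosen on their levels between tissues, and those of Gnb5+/+ mice were compared per kilobase of exon (RPKM, mean ± SD of 6 mice). Two-sided quasi-likelihood tests in edgeR over all 30 Gnb5+/+ libraries called all 9 genes between atria and ventricles, where 51.6% of all genes were called. Ventricles differed from cerebellum, hippocampus and cortex in all 9 genes too (86.6%, 86.9% and 87.4% of all genes), and atria in 7, 6 and 8 (86.3%, 86.4% and 87.0%). Within the brain 4 genes differed between cerebellum and hippocampus (68.3%), 5 between cerebellum and cortex (69.1%) and 4 between hippocampus and cortex (33.5%). Shares of this size among all genes make such calls common, so the order of the tissues says more than the count.

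Dock3 and Dclk3 were brain genes by this measure. Dock3 fell from 22.2 ± 1.18 RPKM in cortex through 13.8 ± 0.545 in cerebellum and 12.01 ± 0.894 in hippocampus to 0.539 ± 0.1002 in atria and 0.0304 ± 0.0171 in ventricles. The step from hippocampus to atria was 4.48 ± 0.11 on the log2 scale (adjusted p of 8.6e-27, edgeR), and cerebellum and hippocampus did not pass the threshold (0.20 ± 0.09, adjusted p of 0.0515, or 0.0426 with the mouse as a block). Dclk3 fell from 11.7 ± 1.02 in cortex to 5.00 ± 0.645 in hippocampus, 0.710 ± 0.262 in cerebellum, 0.436 ± 0.0590 in atria and 0.146 ± 0.0750 in ventricles, and every neighbouring pair of tissues differed (largest adjusted p of 0.00109). Dock3 was thus called between genotypes in the atria, the tissue of its second lowest level, and Dclk3 in the brain region of its lowest level.

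Ephb1 was highest in cerebellum at 5.99 ± 0.643 RPKM, then cortex at 4.76 ± 0.413 and hippocampus at 3.61 ± 0.493. These neighbours did not pass the threshold, with log2 steps of 0.33 ± 0.24 and 0.40 ± 0.24 and adjusted p of 0.231 and 0.225 (edgeR). Without mouse 15 both did, with adjusted p of 0.0338 and 0.0384. The ventricles came next at 1.46 ± 1.32, or 0.927 ± 0.192 without mouse 15, and the atria last at 0.454 ± 0.107. The step from ventricles to atria was 1.67 ± 0.29 with mouse 15 and 1.07 without it, past the threshold both times. Poc1a ran from cortex (2.82 ± 0.439) and hippocampus (2.21 ± 0.348) to ventricles (1.496 ± 0.395), atria (0.99005 ± 0.183) and cerebellum (0.643 ± 0.122). Its first pair missed the threshold (adjusted p of 0.0751) but passed with the mouse as a block (0.0165) and without mouse 15 (0.0391), and each later step passed.

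Parp3 and Mrpl3 were highest in the heart. Parp3 had 26.2 ± 3.14 RPKM in ventricles and 18.9 ± 3.02 in atria, 9.51-fold above cerebellum at 1.98 ± 0.175, then cortex at 1.18 ± 0.186 and hippocampus at 0.890 ± 0.0925, and every step passed the threshold (largest adjusted p of 0.00635, edgeR). The difference between Gnb5-/- and Gnb5+/+ mice in Parp3 was called in the heart alone, where the gene was read most. Mrpl3 had 14.8 ± 1.40 in ventricles and 10.1 ± 1.12 in atria, and 8.26 ± 0.338, 8.06 ± 0.146 and 7.80 ± 0.309 in hippocampus, cortex and cerebellum, which did not differ beyond their spread (adjusted p of 0.710 and 0.509).

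The last 3 genes were Ppm1m, Hemk1 and Bfsp2. Ppm1m had 8.21 ± 0.855 RPKM in cortex, then 6.18 ± 0.975 in atria, 6.01 ± 0.588 in hippocampus and 5.91 ± 0.294 in cerebellum, which did not pass the threshold against each other (adjusted p of 0.709 and 0.841, edgeR), and 3.34 ± 0.626 in ventricles. Hemk1 lay between 6.11 ± 1.60 in ventricles and 3.71 ± 0.777 in atria. Its ventricles were above the brain regions (0.38 ± 0.13 over cerebellum, adjusted p of 0.00608), which did not pass against each other (0.830 and 0.859), and its last step, hippocampus over atria, was 0.26 ± 0.13 with an adjusted p of 0.0517 and passed under each of the 5 alternatives run. Bfsp2 had 1.49 ± 0.511 in hippocampus, 1.47 ± 0.523 in cortex, 1.37 ± 0.792 in atria and 1.22 ± 0.447 in cerebellum, in which no neighbours passed (adjusted p of 0.991, 0.769 and 0.657), and 0.140 ± 0.0885 in ventricles, 8.84-fold below cerebellum.

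**Figure D4:**
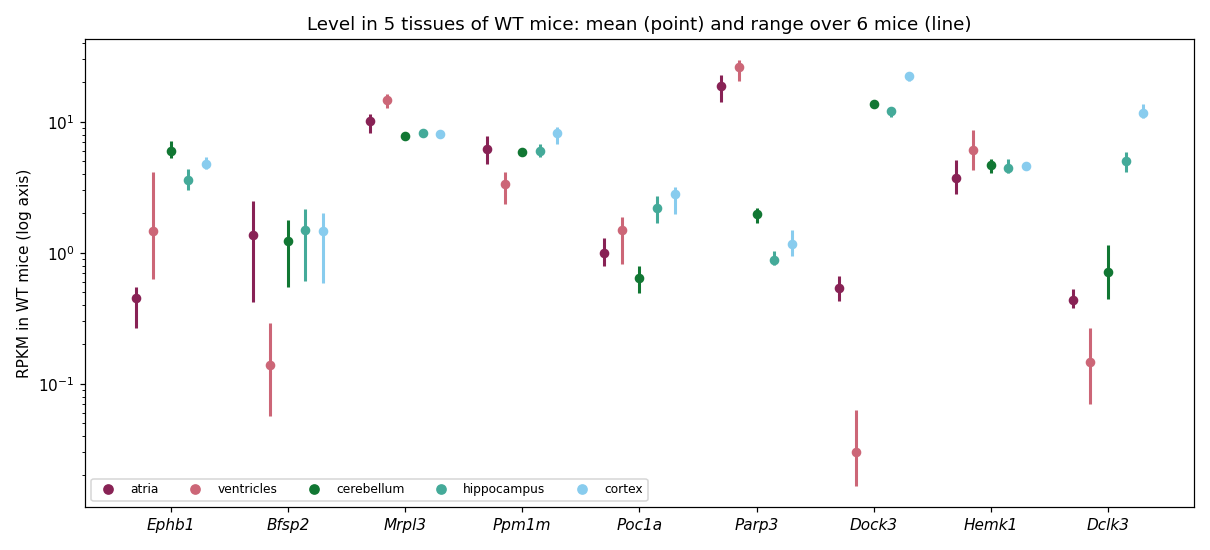
Level of each of the 9 genes in the 5 tissues of 6 Gnb5+/+ mice, in RPKM (log axis), with points at the mean and bars from the lowest to the highest mouse. Parp3 and Mrpl3 are highest in ventricles (26.2 and 14.8 RPKM), Dock3 and Dclk3 in cortex (22.2 and 11.7), and Dock3 and Bfsp2 fall to 0.0304 and 0.140 in ventricles.

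The genes most like each of the 9 were found by Pearson's correlation over the 18 mice of log2 CPM in atria and ventricles, each tissue centred and the 2 averaged, among 14650 genes tested in both. These correlations share the mice and genotypes that chose the 9 genes and are a description. Hemk1 was most like Prss45 (r = 0.97), 35.5 Mb distal of Gnb5, and Gm8210 (0.96), annotated on chromosome 1. Ephb1 was most like the same genes in the other order (Gm8210 0.96, Prss45 0.91), and Ppm1m like Prss45 (0.90) and Oaz2-ps (0.89, chromosome 3). Parp3 was most like Rpl29 (0.94) and Cyb5r4 (0.93), the latter 11.7 Mb distal of Gnb5, and Mrpl3 like Abhd14b (0.92) and Tma7 (0.92), which lie 1.39 and 4.02 Mb from it. Poc1a was most like Sdhb (0.86, chromosome 4) and Mrpl16 (0.83, chromosome 19), and Dclk3 like Adamts15 (0.82), 44.4 Mb proximal of Gnb5, and Tubb1 (0.75, chromosome 2). Of the 10 most alike, 8 lay on chromosome 9 for Parp3, 7 for Mrpl3 and for Hemk1, 6 for Ppm1m, 5 for Ephb1, 4 for Poc1a and 1 for Dclk3. As background, chromosome 9 carried 933 of the 16181 genes that the atrial test covered. The ventricular test covered 14866 genes, 842 of them from that chromosome. The share of chromosome 9 among the 14650 genes compared here was not counted. Bfsp2 and Dock3 were not tested in ventricles and were not compared.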

How the data were processed

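Mouse RNA was sequenced from 72 libraries of 12 groups. Per the labels and the study's methods, the authors trimmed reads with cutadapt 1.8, aligned them to GRCm38 with STAR 2.5.3a and counted reads per gene with HTSeq 0.9.1. The deposited values are raw counts per Ensembl gene, 1 file per library. Of 53715 identifiers, 53620 matched GENCODE M21. Rows that name no gene, 2.85% to 16.97% of unique reads for those outside genes, were left out. Genotypes were compared within a tissue with the edgeR 4.0.16 quasi-likelihood test in R 4.3.3 (TMM, filterByExpr at a count minimum of 10, genotype as the only term, adjusted p by Benjamini-Hochberg over all genes tested, threshold 0.05). The study's own tool was DESeq2, run here (1.42.0) as an alternative. Tissues of Gnb5+/+ mice were compared in 1 fit of 30 libraries. There the labels give the same mouse in each tissue, and a fit with the mouse as a block was an alternative. Genotype replicate numbers were tried as a block too. Other alternatives were RLE scaling, no filter, and leaving out mouse 15, 4, 13 or all 3. Leaving out mouse 12 in cerebellum and mice 14 and 3 in cortex, and positions of mice 4 and 13 without mouse 15 in the reference, were added after the data were seen. Positions used log2 CPM with a prior count of 2. The 9 genes, the interval around them, the gene lists and the 3 mice described singly were chosen with earlier results of these data known. Named relatives were those called, or else of smallest p, in each family, named interval genes those called in 3 or more tissues, with some results not reported here (Abhd14b, Nprl2, Pxylp1 and Pcolce2 were picked after their values were seen), named genes near Gnb5 the called ones closest to it with Snap91, Fam81a and Bmp5, and the genes alike the 2 of highest r. No 2 libraries held identical counts. Fits were tested on simulated data.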

Additional observations from a re-analysis of the deposited data

Results flagged for a closer look

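In 11 of the 108 groups of 6 mice (9 genes in 12 groups), 1 library lay far from the other 5 by Dixon's test. Chance alone gives about 1 in 20 such groups, but the genes and mice were chosen with these values known and the 108 groups share the same 18 mice, so nothing is read from the count. Of the 11, 4 were Gnb5+/+ mouse 15, for Ephb1 in ventricles (18.0 CPM, others at most 4.68), Parp3 in ventricles (47.2, others at least 58.4), Bfsp2 in cortex (1.28, others at least 2.80) and Poc1a in cortex (8.49, others at least 11.7). Each of these lay on the side of the Gnb5-/- mice. Another 4 were Gnb5-/- mouse 12, for Mrpl3 (67.4 CPM), Hemk1 (48.8) and Dock3 (131) in cerebellum, where its library also stood apart in choroid plexus markers and in reads outside genes, and for Ppm1m in hippocampus (11.01). The remaining 3 were Hemk1 in cortex of Gnb5-/- mouse 14 (55.8 CPM), Poc1a in atria of Gnb5+/- mouse 4 (4.21) and Bfsp2 in ventricles of Gnb5-/- mouse 5 (0.0305).

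For 4 genes every Gnb5-/- mouse lay on one side of the Gnb5+/+ mean in one tissue and on the opposite side in another, and this difference between tissues was not tested. The log2 difference between genotypes in ventricles exceeded that in cerebellum by 2.69 for Ephb1, that in cortex by 1.78 for Ppm1m and that in hippocampus by 1.42 for Hemk1, and for Parp3 that in hippocampus exceeded that in ventricles by 1.07. Ephb1 in cerebellum and Hemk1 and Parp3 in hippocampus were not called, and the genotypes overlapped there. The share of all genes that meet this rule was not counted.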

How the results depend on the processing

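RLE scaling and no filter left the counts of calls among the 9 genes as they were. Counts between tissues stayed within 1.5 times in all 50 pairs of a tissue contrast and an alternative setting. Calls were gained for Ppm1m in atria (DESeq2, or without mouse 15), Dclk3 in ventricles (DESeq2) and Bfsp2, Mrpl3 and Ppm1m in cerebellum (DESeq2, or without mouse 12). Genotype replicate numbers do not pair the mice (correlation over 0.1 in 4 of 54 pairs, from -0.24 to 0.15). With the number as a block, calls among the 9 genes fell to 3 in ventricles (Mrpl3 and Ppm1m lost), 0 in cerebellum (Dclk3 and Poc1a lost), 1 in cortex (Bfsp2 and Poc1a lost) and 3 in hippocampus (Mrpl3 lost), calls in the 25 to 38 Mb interval to 2, 2 and 7 in cerebellum, cortex and hippocampus, calls among relatives in atria to 0, and all genes called from 14 to 5, 29 to 19 and 10 to 6 in cerebellum, hippocampus and cortex and from 3 to 0 in Gnb5+/- ventricles. DESeq2 gave 5 of the 9 genes in cerebellum, 1 relative there, and 24, 19, 19, 23 and 13 interval genes in atria, ventricles, cerebellum, hippocampus and cortex. All genes called rose with it from 41 to 110, 28 to 63, 14 to 49, 29 to 104 and 10 to 25, and from 2 to 7 in Gnb5+/- atria. They were 62, 30 and 20 without mouse 15 in atria, cerebellum and cortex and 6 and 5 in Gnb5+/- atria and ventricles. Without mice 15, 4 and 13 they were 71 and 58 in atria and ventricles and 8 and 12 in the Gnb5+/- contrasts. Without mouse 12 they were 62 in cerebellum, and without mouse 14, or mice 14 and 3, 22 and 26 in cortex. Leaving out mice gave 5 to 6, 5, 2 to 5, 4 and 3 calls among the 9 genes in that order, and 0 to 1 and 0 to 2 in Gnb5+/- atria and ventricles (Hemk1, and Ephb1 with Hemk1, without mice 15, 4 and 13). Interval calls were 13 to 24, 11 to 20, 15 to 23, 17 and 11 to 12, and 0 to 3 and 0 to 4 in Gnb5+/- atria and ventricles. The larger counts came without mouse 15 (21, 15, 15, 17 and 11), mouse 4 (16 in ventricles), all 3 mice (24 and 20), mouse 12 (23 in cerebellum), mouse 14 (12 in cortex) and mice 14 and 3 (12 in cortex). The cause of these shifts was not tested, and mice 15, 4 and 13 were singled out with the values of the 9 genes known. Between tissues, uncalled log2 steps reversed for Bfsp2 hippocampus over cortex (-0.0039 by DESeq2, -0.0069 by RLE), Ppm1m atria over hippocampus (-0.040 by each of both, -0.032 without the filter, -0.064 without mouse 15) and Hemk1 cerebellum over cortex (-0.039 by each of both). Dock3 cerebellum over hippocampus passed with the mouse as a block (adjusted p of 0.0426 by edgeR). Median positions of the 3 mice moved by less than 1 SD in all 31 comparisons. Depth limits Bfsp2 and Dock3 in ventricles, which were not tested.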
